A study of Mus musculus with 6 samples.

Results

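Enzymes that write and erase methyl groups on histones and DNA, other than the H3K9 methyltransferases, are described here in kidney fibroblasts treated with TGF-β alone or with TGF-β and CXCL10. The set of 49 genes is a list of names with no threshold on a measured value, drawn up with earlier results of these data known. All 49 had a row among the 20323 gene rows of the deposited table, and all 49 had enough counts to be tested, as did 11970 genes in all. For KMT2A, KMT2D and KDM4A, the 3 symbols with more than 1 row, the row with the highest mean count was kept. The members were grouped as 9 writers of H3K4 methylation, 4 of H3K27, 8 of H3K36, 1 of H3K79 and 3 of H4K20, with 16 demethylases and 8 genes of DNA methylation.

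RNA was sequenced from a line called RFB, labelled as kidney fibroblasts, in 6 libraries, 3 per group. One group received TGF-β, the cytokine that drives fibroblasts toward a fibrotic state, and the other both TGF-β and CXCL10, a ligand of the chemokine receptor CXCR3; all cells had thus received TGF-β, and there was no group without it. Titles give a volume of 5 µl for CXCL10 with no concentration, and the time of exposure, the age of the animals behind the line, the number of clones and separate cultures for the replicates are not stated in the labels. The series' design text speaks of a SUV39H1 knockdown that no sample label names. The labels give the organism as mouse, whereas all 20323 rows carry human Ensembl identifiers. Every level below is therefore that of a row with a human identifier, and how the identifiers were assigned is not stated.

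Libraries held 12838106 to 15587409 counts. Fibroblast markers were abundant, the 10 together taking 89781 to 94942 CPM (counts-per-million, with TMM-scaled library sizes) in the 6 libraries, with COL1A1 at 35682 ± 3121 CPM and PDGFRB at 450.5 ± 24.1 CPM (SD, n = 3) in the TGF-β group. Of 10 epithelial markers KRT8, KRT18 and KRT19 were high, at 2011, 1098 and 189.7 CPM on average with TGF-β. CDH1, PAX8 and AQP1 also had enough counts to be tested. CDH16, LRP2 and UMOD had 0 counts in all libraries and EPCAM at most 8 counts. In the paired fit described below, 2 of the 6 tested epithelial markers rose (KRT19 by 0.28 and KRT18 by 0.23, log2) and CDH1 fell by 1.89 from a low level of 2.41 CPM. Of the 10 fibroblast markers 3 rose and 3 fell. In that fit 9.71% of all tested genes were higher and 8.04% lower. The part of these shifts in the changes of the enzymes was not tested. Of 6 immune markers CD3E was at 0, and CD68 gave most of the summed 37.6 to 45.8 CPM; of 6 endothelial markers TEK gave most of the summed 47.9 to 51.9 CPM. Replicate 1 of the TGF-β group stood apart from its group: its counts differed from those of the other replicates by 17.4 and 16.2 in chi-square per degree of freedom, against 3.07 between replicates 2 and 3. Replicate 1 of the CXCL10 group also stood apart, by 8.81 and 8.44 against 2.79 between its other replicates. Results that rest on TGF-β replicate 1 are given with and without it.

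Methyl groups on histone tails are placed by SET-domain enzymes (and, on H3K79, by DOT1L) and removed by flavin-dependent LSD enzymes or iron- and 2-oxoglutarate-dependent Jumonji enzymes. H3K4 and H3K36 methylation accompany active genes, whereas H3K27 trimethylation by Polycomb repressive complex PRC2 accompanies silent ones. On DNA, DNMT3A and DNMT3B methylate new sites, DNMT1 with its partner UHRF1 copies the pattern at replication, and TET enzymes oxidise the methyl group.

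Per transcript length, the demethylase KDM1A was the most abundant of the 49 messages and the H4K20 methyltransferase KMT5C the least abundant. In the deposited FPKM (fragments scaled to transcript length and library depth), KDM1A, also called LSD1, stood at 32.7, 27.8 and 28.8 in the 3 TGF-β libraries and 35.5, 31.1 and 31.9 in the 3 CXCL10 libraries. SETD5 and KDM5C followed at means of 30.1 and 30.0 FPKM over the 6 libraries, and those means lay within the spread of KDM1A. KMT5C had 1.34 ± 0.13 FPKM (SD, n = 3) with TGF-β and 1.07 ± 0.25 with CXCL10, and DNMT3B was the next lowest at 1.77 ± 0.59 and 1.103 ± 0.44. Of the DNA methylation genes TET3 was the highest, at a mean of 10.3 FPKM, with UHRF2 at 7.30, DNMT1 at 6.06, UHRF1 at 5.94, DNMT3A at 2.96, TET2 at 2.53 and TET1 at 2.06. Of the PRC2 core, SUZ12 (7.07) was above the catalytic subunits EZH2 (3.32) and EZH1 (2.53) and the scaffold EED (3.23), which lay close together.

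**Figure D1:**
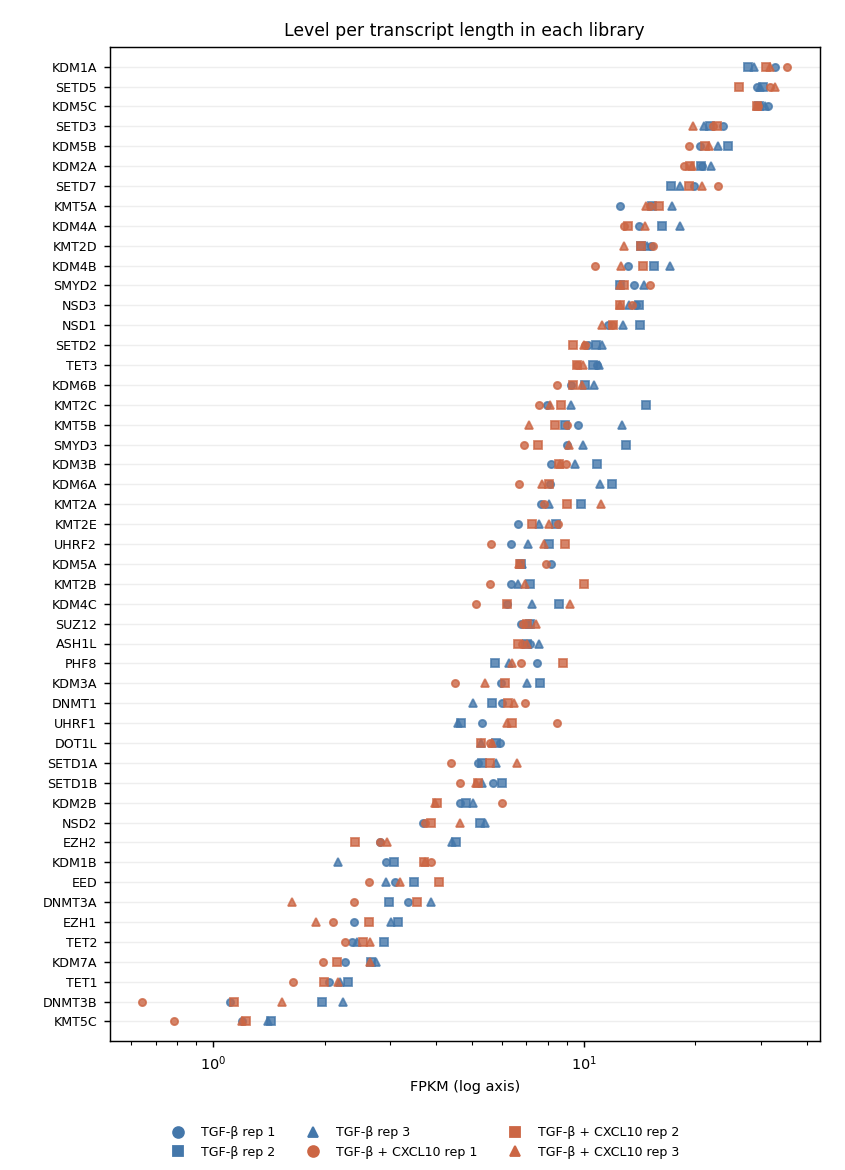
Level of each of the 49 genes in each of the 6 libraries, in the deposited FPKM on a log axis, ordered by the mean over libraries; symbols mark replicates and colours the groups. KDM1A is at the top at 27.8 to 35.5 FPKM and KMT5C at the bottom, and for most genes both colours overlap.

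The comparison asks what CXCL10 added to TGF-β changes in these genes. In edgeR's quasi-likelihood test without pairing, 0 of the 49 genes had an adjusted p under 0.05 (0% of all tested genes in either direction; smallest adjusted p of a member 0.161), while 12 had an unadjusted p under 0.05, 5 higher and 7 lower. At that unadjusted threshold 10.5% of all tested genes were higher and 10% lower. When libraries were paired by the replicate number in their titles, the paired fit called 4 members higher (SETD7, KDM1A, KDM1B and UHRF1) and 5 lower (KDM3A, KDM4B, KDM6A, DNMT3A and DNMT3B). These are 8.16% and 10.2% of the 49, against 9.71% and 8.04% of all tested genes (17.7% in both directions together), so the shares are near the background. DESeq2 without pairing called UHRF1 higher (adjusted p = 0.0375) and DNMT3A lower (adjusted p = 0.0286), where 1.44% and 1.36% of all genes were called. In the authors' deposited table, 0 members had an adjusted p under 0.05, while 0.714% of all genes with a count passed as higher and 0.618% as lower; DNMT3A (0.0572) and UHRF1 (0.0675) came nearest.

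Most differences were small. The paired log2 changes had a median of -0.07 over the members and -0.01 over all tested genes, and the median absolute change was 0.13 against 0.16. Of the members 14 lay above 0 and 35 below, where 48.7% of all tested genes lay above; scaled by library totals alone, 10 lay above and 39 below, and the paired fit then called 3 higher and 10 lower (877 and 1359 of all genes, against 1162 and 962). The groups did not overlap for 5 members on the higher side (10.2%, against 11.1% of all genes) and 7 on the lower side (14.3%, against 11.2%).

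**Figure D2:**
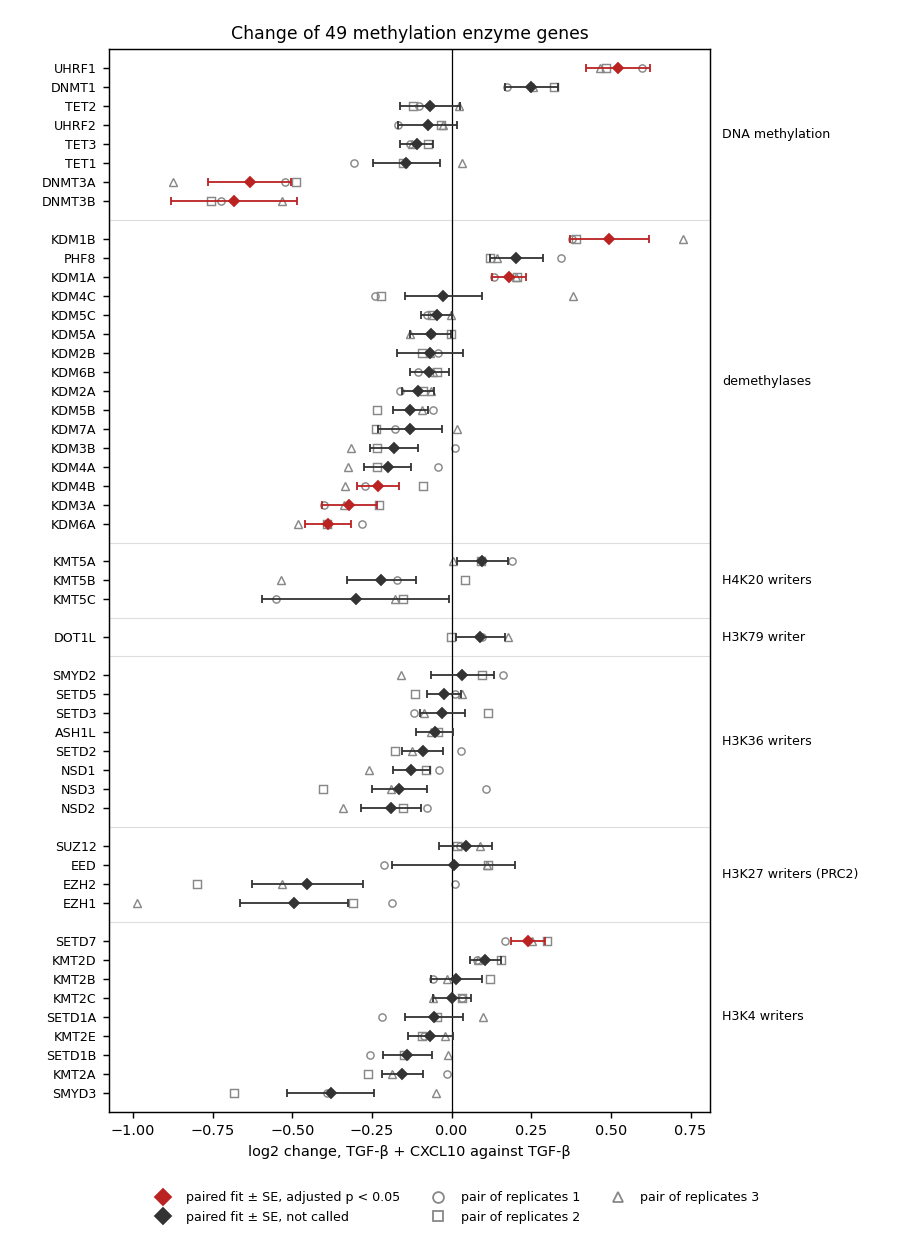
Log2 change of each of the 49 genes with CXCL10, by role: diamonds with bars give the paired edgeR estimate ± SE, in red where the adjusted p is under 0.05, and open symbols the difference within each replicate number. The 9 red genes lie in 3 roles, and the estimates run from -0.68 for DNMT3B to 0.52 for UHRF1.

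In the paired fit the DNA methylation genes held the largest estimates in both directions, with KDM1B (0.50) close behind UHRF1. On log2(FPKM + 1) UHRF1 again rose most (0.45), while KDM6A (-0.41) fell about as far as DNMT3B (-0.40). UHRF1 (ENSG00000276043), which reads hemimethylated DNA and histone tails and brings DNMT1 to replicated DNA, stood at 18.5, 16.7 and 15.2 CPM in the TGF-β libraries and 28.1, 23.5 and 21.1 CPM in the CXCL10 libraries. All 3 CXCL10 libraries were above all 3 TGF-β libraries. The means were 16.8 ± 1.64 and 24.2 ± 3.56 CPM (SD, n = 3), and the gene rose by 0.52 on the log2 scale in the paired fit (SE 0.10; edgeR adjusted p = 0.00272, or 0.161 unpaired). DNMT1 (ENSG00000130816), the maintenance methyltransferase, held 31.8, 26.7 and 26.4 CPM with TGF-β and 35.9, 33.4 and 31.6 CPM with CXCL10. TGF-β replicate 1 lay just above the lowest CXCL10 library, so that the groups overlapped, and the paired difference of 0.25 (SE 0.08) did not pass (adjusted p = 0.0560; 0.222 unpaired). Without TGF-β replicate 1 and without pairing it passed (0.34, adjusted p = 0.0346). UHRF2, the paralog of UHRF1, differed by -0.07 (SE 0.09).

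The de novo methyltransferases were lower. DNMT3A (ENSG00000119772) held 13.8, 16.6 and 17.4 CPM with TGF-β and 9.56, 11.8 and 9.44 CPM with CXCL10. Every CXCL10 library was below every TGF-β library. The group means were 15.9 ± 1.89 and 10.3 ± 1.31 CPM, and the gene fell by 0.63 on the log2 scale in the paired fit (SE 0.13, adjusted p = 0.00444; 0.161 unpaired). DNMT3B (ENSG00000088305) was scarcer, with 4.50, 7.97 and 8.19 CPM under TGF-β and 2.67, 4.66 and 5.62 CPM with CXCL10. Here TGF-β replicate 1 lay below the CXCL10 replicates 2 and 3, while each CXCL10 library was below the TGF-β library of its own number. The paired log2 change was -0.68 (SE 0.20, adjusted p = 0.0292; 0.252 unpaired). The TET dioxygenases did not pass: TET1 differed by -0.14 (SE 0.11), TET2 by -0.07 (SE 0.09) and TET3 by -0.11 (SE 0.05). TET2 held 22.7, 26.4 and 23.2 CPM with TGF-β and 21.2, 24.2 and 23.6 CPM with CXCL10, which overlap throughout. TET3 was lower in all 3 CXCL10 libraries, at 101 to 105 CPM against 110.0 to 114 CPM (adjusted p = 0.178).

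Both LSD-family demethylases, which remove methyl groups from H3K4, rose in the paired fit. KDM1B (LSD2, ENSG00000165097) held 13.4, 12.3 and 9.69 CPM with TGF-β and 17.4, 16.2 and 16.1 CPM with CXCL10, with no overlap of the groups. Its means of 11.8 ± 1.90 and 16.6 ± 0.74 CPM gave a rise of 0.50 (log2) in the paired fit (SE 0.12, adjusted p = 0.0143; 0.161 unpaired). KDM1A (ENSG00000004487), the catalytic part of the CoREST complex, held 103, 86.2 and 88.5 CPM with TGF-β and 113, 99.4 and 102 CPM with CXCL10. TGF-β replicate 1 was above both CXCL10 replicates 2 and 3. The paired change was 0.18 (SE 0.05, adjusted p = 0.0353, or 0.278 unpaired). Without TGF-β replicate 1 it also passed unpaired (0.26, adjusted p = 0.0331). The paired fit did not call it without both replicates 2 (adjusted p = 0.193) or both replicates 3 (0.183). PHF8, a Jumonji demethylase of H3K9 and H4K20, was higher in all 3 CXCL10 libraries, at 34.2 to 38.9 against 30.6 to 32.8 CPM, and did not pass (0.20, SE 0.08, adjusted p = 0.118).

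Among the Jumonji enzymes the H3K27 demethylase KDM6A (UTX, ENSG00000147050) had the lowest adjusted p. It held 43.9, 59.6 and 59.1 CPM with TGF-β and 36.05, 45.4 and 42.3 CPM with CXCL10. TGF-β replicate 1 fell between the CXCL10 libraries, and the other TGF-β libraries lay above all of them. The paired log2 change was -0.39 (SE 0.07, adjusted p = 0.00260; 0.170 unpaired), and without TGF-β replicate 1 the unpaired change was -0.52 (adjusted p = 0.00565). Its paralog KDM6B (JMJD3), the inducible H3K27 demethylase, held 62.4, 66.0 and 70.2 CPM with TGF-β and 58.0, 63.9 and 67.5 CPM with CXCL10, and differed by -0.07 (SE 0.06, adjusted p = 0.501). Whether KDM6A and KDM6B differ in their response was not tested.

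The H3K9 demethylase KDM3A, a hypoxia-inducible gene, held 28.5, 35.3 and 33.3 CPM with TGF-β and 21.6, 30.1 and 26.4 CPM with CXCL10. Its paired log2 change was -0.32 (SE 0.09, adjusted p = 0.0219; 0.223 unpaired). KDM4B, which acts on H3K9 trimethylation, held 69.7, 80.4 and 86.8 CPM with TGF-β and 57.8, 75.6 and 68.8 CPM with CXCL10, a paired change of -0.23 (SE 0.07, adjusted p = 0.0281; 0.281 unpaired). For both genes the groups overlapped through TGF-β replicate 1, and the CXCL10 library was the lower in each of the 3 pairs. KDM4A (-0.20, SE 0.07, adjusted p = 0.0759) did not pass although its groups did not overlap, at 57.6 to 67.8 CPM against 49.99 to 55.9. KDM3B (-0.18, adjusted p = 0.126) and KDM4C (-0.03) did not pass either, though KDM3B passed unpaired without TGF-β replicate 1 (-0.27, adjusted p = 0.0374). Of the H3K4 demethylases of the KDM5 family, KDM5A, KDM5B and KDM5C differed by -0.07, -0.13 and -0.05, and the H3K36 demethylases KDM2A and KDM2B by -0.11 and -0.07, all uncalled. KDM7A differed by -0.13 (SE 0.10). In the paired fit 2 demethylases of 16 rose, 3 fell and 11 were uncalled, where 17.7% of all tested genes were called, and without pairing 0 of the 16 passed.

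**Figure D3:**
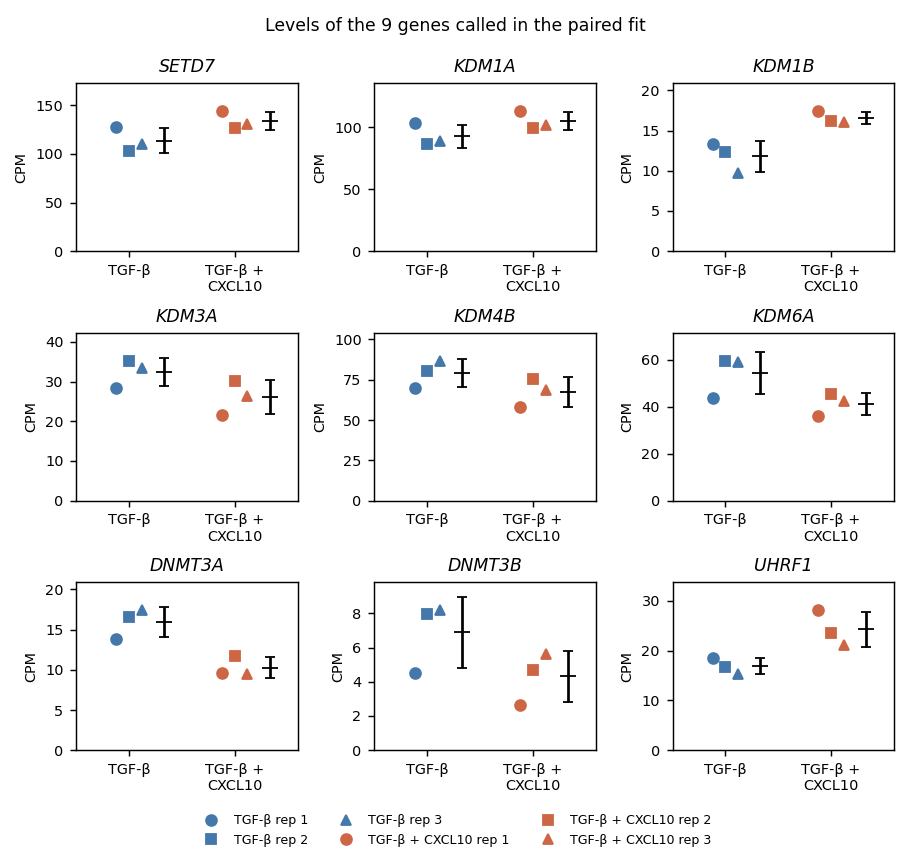
CPM of the 9 genes called in the paired fit, 1 point per library, with the group mean ± SD (n = 3) as a black bar beside the points; each axis starts at 0. UHRF1, KDM1B and DNMT3A have groups that do not overlap, and for the other 6 genes the TGF-β replicate 1 (blue circle) reaches into the range of the CXCL10 libraries.

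For the H3K27 writers 0 of 4 genes passed, where 17.7% of all tested genes were called in the paired fit. EZH2 (ENSG00000106462), the main catalytic subunit of PRC2, held 7.60, 11.6 and 11.6 CPM with TGF-β and 7.66, 6.63 and 8.01 CPM with CXCL10. TGF-β replicate 1 sat inside the CXCL10 range while the other TGF-β libraries were above it. The paired difference was -0.45 (SE 0.17, adjusted p = 0.0942; 0.218 unpaired); without TGF-β replicate 1 it was -0.64 and passed unpaired (adjusted p = 0.0177). EZH1, the catalytic subunit more used in non-dividing cells, held 9.85, 11.6 and 13.4 CPM with TGF-β and 8.64, 9.32 and 6.67 CPM with CXCL10, groups that do not overlap, and differed by -0.49 (SE 0.17, adjusted p = 0.0618; 0.182 unpaired). Without TGF-β replicate 1 it passed unpaired (adjusted p = 0.0360). The other core subunits SUZ12 and EED differed by 0.04 (SE 0.08) and 0.01 (SE 0.19).

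Because EZH2, UHRF1 and DNMT1 are higher in dividing cells, 20 genes of S phase and mitosis were read beside them. Of the 17 tested, 0 rose and 1 fell in the paired fit, TYMS by 0.41 on the log2 scale (adjusted p = 0.0386). In that fit 9.71% of all tested genes were higher and 8.04% lower. The unpaired fit without TGF-β replicate 1 called 1 higher and 1 lower, against 10.7% and 8.61% of all tested genes. The paired estimates leaned upward: 11 of the 17 genes lay above 0 and 6 below, where 48.7% of all tested genes lay above. The list median was 0.12, against -0.01 over all tested genes. MKI67 was scarce in all libraries, at 0.451 to 1.58 CPM, and TOP2A stood at 2.74 to 4.04 CPM. The summed level of the 20 genes was 157 to 162 CPM with TGF-β and 159 to 170.2 CPM with CXCL10. CCNB1 (0.64, adjusted p = 0.127) and MCM6 (0.23, adjusted p = 0.122) did not pass. In bulk libraries a change in the number of dividing cells and a change of message per cell cannot be told apart.

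Of the 9 H3K4 writers 1 rose in the paired fit, where 9.71% of all tested genes were higher. That gene is not part of a COMPASS complex. SETD7 (ENSG00000145391), a monomethyltransferase that also acts on non-histone proteins, held 128, 103 and 110.0 CPM with TGF-β and 144, 126 and 131 CPM with CXCL10. TGF-β replicate 1 lay above the lowest CXCL10 library. The means of 114 ± 13.1 and 134 ± 9.16 CPM gave a rise of 0.24 (log2) in the paired fit (SE 0.05, adjusted p = 0.00649; 0.200 unpaired). KMT2D, the COMPASS methyltransferase of enhancers, held 173, 166 and 164 CPM with TGF-β and 183, 184 and 174 CPM with CXCL10. Although the groups did not overlap, the difference of 0.11 (SE 0.05) did not pass (adjusted p = 0.156), and on the deposited FPKM its sign was the opposite (-0.06). KMT2A, the founding member of the family, differed by -0.15 (SE 0.06, adjusted p = 0.118), and passed at -0.23 unpaired without TGF-β replicate 1 (adjusted p = 0.0487), whereas on the deposited FPKM its sign was the opposite (0.11). KMT2B (0.02), KMT2C (0.00), KMT2E (-0.07), SETD1A (-0.06) and SETD1B (-0.14) were uncalled. SMYD3, a lysine methyltransferase whose role on H3K4 is debated, stood at 15.6 ± 2.66 and 11.98 ± 1.92 CPM and did not pass (-0.38, SE 0.14, adjusted p = 0.0756).

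Among the 8 H3K36 writers 0 passed, where 17.7% of all tested genes were called in the paired fit. Below 0 lay 7 of the 8 estimates, as did 35 of those of the 49 members. SETD2, which places H3K36 trimethylation along transcribed genes, held 69.5, 71.2 and 75.6 CPM with TGF-β and 70.9, 62.9 and 69.4 CPM with CXCL10, and differed by -0.09 (SE 0.07, adjusted p = 0.384). NSD1, NSD2 and NSD3, which place dimethylation, differed by -0.13, -0.19 and -0.16. NSD2 was lower in all 3 CXCL10 libraries, at 22.8 to 24.7 against 25.9 to 29.0 CPM, and did not pass (adjusted p = 0.189). NSD3 passed unpaired without TGF-β replicate 1 (-0.28, adjusted p = 0.0354), a library that held 55.0 CPM against 73.6 and 66.5 CPM in its group. ASH1L, SETD5, SETD3 (mainly an actin histidine methyltransferase) and SMYD2 differed by -0.05, -0.02, -0.03 and 0.03.

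DOT1L, the H3K79 methyltransferase, held 39.0, 38.3 and 38.3 CPM with TGF-β and 41.7, 38.2 and 43.3 CPM with CXCL10, an uncalled difference of 0.09 (SE 0.08). The H4K20 writers did not pass either. KMT5A, the monomethyltransferase, differed by 0.10 (SE 0.08), and KMT5B and KMT5C, which add further methyl groups, by -0.22 (SE 0.11) and -0.30 (SE 0.29). KMT5C was the scarcest member, at 1.83 to 3.17 CPM, and had the largest SE of the 49.

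For all 9 called genes TGF-β replicate 1 deviated from the other TGF-β libraries in the direction of the CXCL10 group. How often this holds among the other genes called in the paired fit is not given here, so it is not shown to be particular to these enzymes. Replicate 1 differed from the mean of replicates 2 and 3 by -0.82 for DNMT3B, -0.44 for KDM6A, -0.30 for DNMT3A, 0.29 for KDM1B and 0.21 for UHRF1, in log2 CPM. Over the 49 members the median of this deviation was -0.09, and over all tested genes it was 0.00. In the unpaired fit without that library 5 members were higher and 8 lower (10.7% and 8.61% of all genes), and 7 of the 9 paired calls were among them. KDM3A (adjusted p = 0.0506) and KDM4B (0.0581) were not. The unpaired fits that each left out one of the other 5 libraries made 0 calls. The paired fit without both replicates 3 called UHRF1 alone of the members (0.55, adjusted p = 0.0151). It called 539 of 12087 tested genes higher and 365 lower. Of the 9 paired calls, DESeq2 with pairing made 4 (SETD7, KDM6A, DNMT3A and UHRF1), where 684 of 11970 tested genes were higher and 454 lower. The paired edgeR fit scaled by library totals made 8, losing KDM1A, where 877 of 11970 were higher and 1359 lower.

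The deposited FPKM did not always follow the counts. Dividing each library's CPM (here over its total count, without TMM scaling) by its FPKM gives the transcript length that the FPKM implies, which was constant for genes such as TET1 (9.61 kb in each library) and varied for others. The ratio of the highest to the lowest library was above 1.1 for 28 of the 49 members (57.1%, against 50.9% of all tested genes). For DNMT3A the implied length was 4.11, 5.74 and 4.58 kb with TGF-β and 3.93, 3.27 and 5.70 kb with CXCL10. Its FPKM of 3.35, 2.97 and 3.88 against 2.39, 3.55 and 1.63 overlapped, although its counts did not. UHRF1 stayed separate on both scales, with 5.32, 4.65 and 4.57 FPKM against 8.46, 6.39 and 6.23 FPKM, and so did KDM1B. Like DNMT3A, the genes EZH1, KDM4A and PHF8 were separate by CPM and overlapped by FPKM. The reverse held for KDM6A and DNMT1, among others, whose groups overlapped by CPM and not by FPKM.

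KMT2C showed the widest range, from 5.28 kb in TGF-β replicate 2 to 9.88 kb in CXCL10 replicate 3. Its level in that TGF-β library was 14.7 FPKM against 7.57 to 9.22 FPKM in the other 5, while all 6 libraries lay between 73.6 and 84.5 CPM. For KMT2A the implied length was 6.603 kb in CXCL10 replicate 3 and 8.53 to 10.8 kb elsewhere. By limma-trend on log2(FPKM + 1), 0 members passed with or without pairing, UHRF1 (adjusted p = 0.0710) and KDM6A (0.0727) being nearest with it. For 9 members the sign on FPKM was the opposite of that on counts. What makes the implied length vary was not tested.

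**Figure D4:**
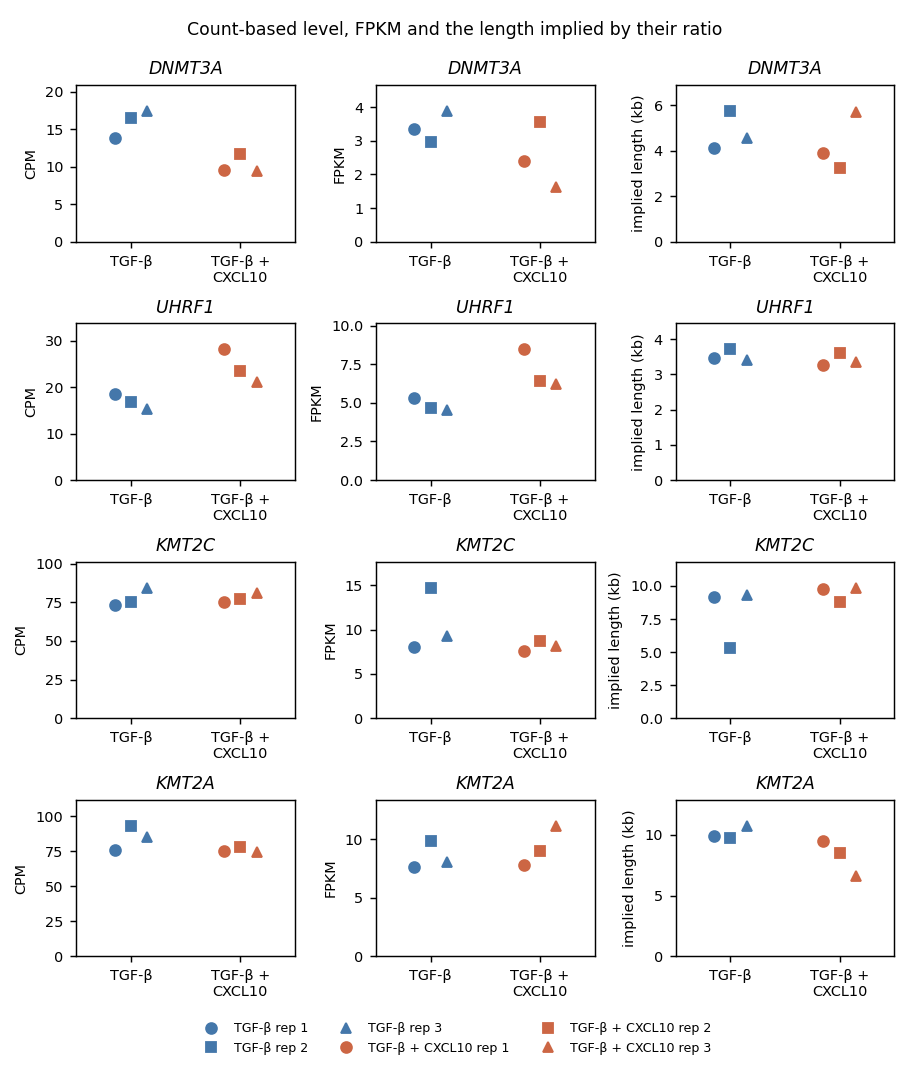
CPM, deposited FPKM and implied transcript length in kb (CPM over FPKM) for DNMT3A, UHRF1, KMT2C and KMT2A, 1 point per library, each axis from 0. DNMT3A is separate by CPM and overlaps by FPKM, and the KMT2C level of 14.7 FPKM in TGF-β replicate 2 goes with an implied length of 5.28 kb.

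Genes that work with these enzymes were read from 6 lists in the paired fit, in which 9.71% of all tested genes were higher and 8.04% lower. The unpaired edgeR test called 0 of the listed genes. With the S phase and mitosis list included, the paired fit called 9 genes higher and 6 lower, and paired DESeq2 5 and 3. Of 11970 tested genes paired DESeq2 called 684 higher and 454 lower. The unpaired fit without TGF-β replicate 1 called 9 and 7, against 10.7% and 8.61% of all tested genes. Of these 1 and 1 were COMPASS subunits. The paired fit called 3 and 4 without both replicates 2, where 680 and 561 of 12005 tested genes were called. Without both replicates 3 it called 4 and 2, where 539 and 365 of 12087 were called. Of 13 COMPASS subunits, the shared partners of H3K4 methyltransferases, 3 rose and 1 fell: the cell-cycle coactivator HCFC1 (0.28, adjusted p = 0.00253), the CpG-binding CXXC1 (0.37, 0.0213) and PAGR1 (0.43, 0.0260) upward, and PSIP1, which binds H3K36 methylation and MLL complexes, downward (-0.47, 0.00138). The groups did not overlap for any of these 4 genes. Of all 13 subunits, 3 did not overlap on the higher side and 3 on the lower, against 11.1% and 11.2% of all tested genes. Of 7 tested PRC2 partners 0 rose and 2 fell, the histone-binding RBBP4 (-0.27, adjusted p = 0.00780) and RBBP7 (-0.21, 0.0378), which also serve other complexes; PHF1 at 0.11 did not pass. Of 8 partners of KDM1A 0 passed in the paired fit, with PHF21A at -0.30 (adjusted p = 0.0680), HDAC1 at 0.20 (0.0951) and HMG20B at 0.19 (0.0996). The unpaired fit without TGF-β replicate 1 called 1 of the 8 higher and 1 lower.

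Of 7 tested methyl-CpG readers and base excision genes 2 rose in the paired fit, the reader ZBTB38 (0.21, adjusted p = 0.0116) and TDG (0.28, 0.0208), the glycosylase that removes TET products. MBD3 (0.12) did not pass. Without pairing 0 genes of this list had an unadjusted p under 0.05, and 2 were called higher once TGF-β replicate 1 was left out. Of 10 genes that supply the methyl donor or handle 2-oxoglutarate 1 rose and 2 fell. IDH1, which makes 2-oxoglutarate, fell from 249 ± 40.4 to 189.6 ± 13.7 CPM (-0.38, adjusted p = 0.000584), MAT2A, which makes S-adenosylmethionine, changed by -0.20 (0.0172), and OGDH, which consumes 2-oxoglutarate, rose by 0.26 (0.00388). Of 9 tested arginine methyltransferase genes 3 rose and 0 fell. PRMT1, the main asymmetric arginine methyltransferase, held 83.1, 63.0 and 62.9 CPM with TGF-β and 115, 88.6 and 89.3 CPM with CXCL10 (0.49, SE 0.06, adjusted p = 8.11e-05). PRMT5, the main symmetric one, and its cofactor WDR77 rose by 0.36 (0.0186) and 0.32 (0.0223).

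**Figure D5:**
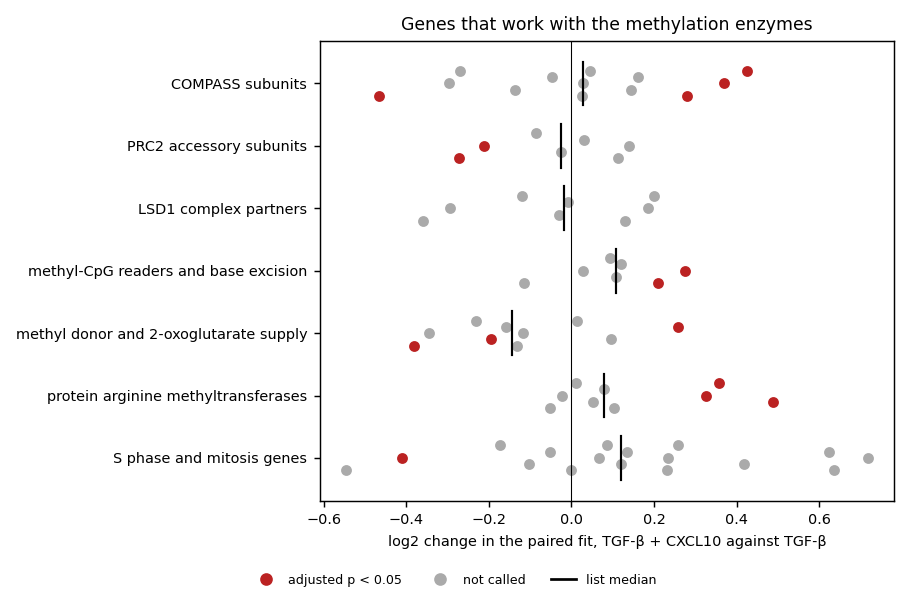
Paired log2 change of each tested gene in the 6 partner lists and the S phase and mitosis list, 1 point per gene, red where the adjusted p is under 0.05, with a black line at the list median. Called genes lie on both sides for the COMPASS subunits and the methyl donor list, on the higher side for the arginine methyltransferases and the methyl-CpG readers, and on the lower side for the PRC2 partners and for TYMS.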

How the data were processed

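Per the labels' protocols, total RNA from an RNeasy kit was made into SMARTer mRNA-seq libraries. The builds GRCm38 and mm10, named in the submitters' processing notes, go against the human identifiers of the rows; for the aligner, counting tool, strand handling and annotation the sources used here give nothing, and no coordinates are printed. Reads of genes with partial copies elsewhere in the genome, such as KMT2C and SUZ12, could have been split or shared. The deposited table holds raw counts and FPKM per library, per the file headers, with the authors' mean FPKM per group, log2 ratio, p-value and adjusted p.

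The quasi-likelihood test of edgeR 4.0.16 (R 4.3.3) was run on the deposited counts with TMM normalization (filterByExpr: minimum count 10, minimum total 15; Benjamini-Hochberg over all 11970 tested genes, threshold 0.05). CPM use TMM-scaled library sizes; a standard error is the log2 change over the square root of F. Log2 CPM differences use a prior count of 2. Alternatives used DESeq2 1.42.0 and limma 3.58.1 (log2(FPKM + 1), or a pseudocount of 0.1). The script was tested on simulated data. A count of 0 allows up to 3 counts, or 0.187 to 0.237 CPM, which covers counting error only.

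The fit without a replicate block was the principal one. Across genes, the deviation of a library from its group mean correlated with that of the library of the same number at 0.330, 0.121 and 0.163, each over 0.1, so the paired fit is printed beside it. Restricted to genes averaging 5 CPM or more, these values were 0.536, 0.228 and 0.202, while the crossed values of replicates 2 and 3 were 0.262 and 0.237, so that there only number 1 was set apart from the rest. The labels do not state a pairing or separate cultures, so p-values may measure technical spread. Members, gene lists and tests were chosen with earlier results of these data known. Members described by library are those past the threshold in either fit together with EZH2, DNMT1, DNMT3A, KDM6B, SETD2, KMT2D, KDM1A, TET2 and UHRF1, some others being named by their values; up to 3 partner genes per list were named by lowest p in the paired fit, with PAGR1, PHF1, MBD3, CCNB1, MCM6, MKI67 and TOP2A besides.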

Additional observations from a re-analysis of the deposited data

How the results depend on the processing

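Without pairing, scaling by size factors or library totals, no low-count filter, and limma-trend on FPKM with either pseudocount called 0 genes, as did leaving out any 1 library other than TGF-β replicate 1. Calls over all genes were 172 higher and 163 lower with DESeq2, with 1 and 1 member. With the replicate block edgeR called 1162 and 962 genes (4 and 5 members), 877 and 1359 with library totals alone (3 and 10), and 1175 and 1031 at a mean of at least 5 CPM (4 and 6). The block gave 684 and 454 with DESeq2 (2 and 2), and 337 and 352 with limma-trend on FPKM (0 and 0). Leaving out 1 library without the block gave 0 to 1302 genes higher and 0 to 1046 lower, with 0 to 5 and 0 to 8 members. Leaving out both libraries of 1 number with the block gave 539 to 1533 higher and 365 to 1313 lower, with 1 to 5 and 0 to 13 members; the lowest values were those without replicate 3, the highest those without replicate 1, and without replicate 2 they were 680 and 561 genes (2 and 3 members).

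Of the 15 members that the naming rule describes in full, 2 changed sign. KMT2D was at -0.059 on log2(FPKM + 1), with the block and without it, and at -0.063 with the pseudocount of 0.1. TET2 ranged from -0.11 to 0.0011 over the unpaired fits that left out 1 library, the highest being that without TGF-β replicate 2. DOT1L (-0.035) and KMT2A (0.11) are among the 9 members, KMT2D included, whose sign on log2(FPKM + 1) was the opposite of that on counts. The cause was not tested.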
